A study of Mus musculus with 7 samples.

Results

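The constitutive proteasome is described here in haematopoietic stem cells (HSCs) of old and young mice, as 50 of the 24015 genes of a count table. The members are all genes whose symbol starts with Psm, a letter from a to g and a digit, other than Psmb8, Psmb9 and Psmb10, together with Pomp, Adrm1 and Usp14. They comprise 16 genes of the core particle, 18 of the regulatory particle, 8 assembly chaperones and 6 activators, inhibitors and associated enzymes. The pattern also takes in Psmc3ip, which encodes a cofactor of meiotic recombination and no proteasome part, and Psme2b, by its name a second copy of Psme2. These 2 are described apart. Of the 50 members, 49 had enough counts to be tested, and the one left out was Psmb11.

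The data were 7 bulk RNA sequencing libraries of polyadenylated RNA from HSCs of C57BL/6 mice, 3 of old and 4 of young animals. No treatment or transgene is named for either group. The cells were sorted from bone marrow by flow cytometry as LSK cells (lineage-negative, Sca-1+ and c-Kit+) that were also CD150+ and CD48-, so both groups share this gate and differ in the labelled age. The ages, and whether a library held cells of 1 mouse or of several, are not stated, and the p-values below measure the spread between these libraries, which may be partly technical.

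The libraries held 22203806 to 32401925 counts. Levels are given as CPM, read counts scaled to a common library size with TMM factors (trimmed mean of M values). A count of 0 in a library allowed up to 0.0929 to 0.137 CPM, the worth of 3 counts, which covers counting error only. The HSC markers used for this purpose (Procr, Slamf1, Kit, Ly6a, Mecom, Hlf, Fgd5 and Hoxb5) had counts in all libraries, except Fgd5 in young 2. Cd3e, Ms4a1, Hba-a1, Hbb-b1 and Lepr, which define T cells, B cells, erythroid cells and stroma, were at 0 in all 7. Lyz2, a lysozyme gene of myeloid cells, was at 692 to 1414 CPM, while the other 6 genes of the myeloid list (Mpo, Elane, S100a8, S100a9, Ngp and Itgam) ranged from 0 to 24.6 CPM, the highest being Mpo in young 1. On the first 2 principal components of all genes, young 1 and young 2 lay apart from the other libraries, so the main values are also given without them.

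The proteasome degrades proteins that carry ubiquitin chains and returns their peptides and the ubiquitin to the cell. Its core particle is a barrel of stacked rings, in which alpha subunits (Psma genes) form the gated outer rings and beta subunits (Psmb genes) the inner rings with the proteolytic sites. The regulatory particle caps the barrel. Its base holds the ATPases (Psmc1 to Psmc6) that unfold substrates and the receptors that bind ubiquitin, and its lid holds the enzyme that cuts the ubiquitin chain off. HSCs are known for a low rate of protein synthesis and for their dependence on protein quality control.

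Cells are known to raise proteasome genes together through the transcription factor encoded by Nfe2l1, which binds antioxidant response elements, and many promoters of housekeeping genes hold CCAAT boxes. The promoters of all members with a RefSeq promoter were therefore searched for both motifs. Windows are printed for 5 of these members. They are the regulatory genes Psmc1 (chr12:100109952-100110251, plus strand), Psmc4 (chr7:28050043-28050342, minus strand) and Psmd2 (chr16:20651402-20651701, plus strand), and the catalytic core genes Psmb5 (chr14:54617946-54618245, minus strand) and Psmb6 (chr11:70525107-70525406, plus strand). Each window runs from 250 bases before to 50 bases after the RefSeq transcript start (GRCm38.p6), is printed 5′ to 3′ on the gene's strand, and has in capitals each match to TGACNNNGC (the response element core) or CCAAT, on either strand.
Psmc1: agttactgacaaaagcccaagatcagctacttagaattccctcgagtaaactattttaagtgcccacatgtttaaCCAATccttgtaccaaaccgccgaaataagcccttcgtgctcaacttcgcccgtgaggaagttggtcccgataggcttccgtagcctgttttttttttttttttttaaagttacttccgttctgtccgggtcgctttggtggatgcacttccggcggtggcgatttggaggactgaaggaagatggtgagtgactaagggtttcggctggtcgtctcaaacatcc
Psmc4: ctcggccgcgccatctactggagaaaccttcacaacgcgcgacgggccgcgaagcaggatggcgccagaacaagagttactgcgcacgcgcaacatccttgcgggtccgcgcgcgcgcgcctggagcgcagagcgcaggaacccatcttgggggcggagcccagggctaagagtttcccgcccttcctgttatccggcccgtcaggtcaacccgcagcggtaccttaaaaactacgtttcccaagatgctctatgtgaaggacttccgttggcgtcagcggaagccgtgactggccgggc
Psmd2: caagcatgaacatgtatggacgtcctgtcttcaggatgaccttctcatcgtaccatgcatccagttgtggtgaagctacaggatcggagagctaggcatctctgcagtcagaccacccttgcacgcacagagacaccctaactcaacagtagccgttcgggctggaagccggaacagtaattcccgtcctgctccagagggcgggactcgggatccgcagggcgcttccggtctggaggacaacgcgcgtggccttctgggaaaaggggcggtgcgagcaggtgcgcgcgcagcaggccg
Psmb5: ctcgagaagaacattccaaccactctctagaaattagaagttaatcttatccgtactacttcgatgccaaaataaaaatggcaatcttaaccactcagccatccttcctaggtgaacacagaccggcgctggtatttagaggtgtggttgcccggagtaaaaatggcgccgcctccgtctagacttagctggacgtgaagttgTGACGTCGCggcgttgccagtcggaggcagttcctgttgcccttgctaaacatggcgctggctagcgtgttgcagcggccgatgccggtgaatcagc
Psmb6: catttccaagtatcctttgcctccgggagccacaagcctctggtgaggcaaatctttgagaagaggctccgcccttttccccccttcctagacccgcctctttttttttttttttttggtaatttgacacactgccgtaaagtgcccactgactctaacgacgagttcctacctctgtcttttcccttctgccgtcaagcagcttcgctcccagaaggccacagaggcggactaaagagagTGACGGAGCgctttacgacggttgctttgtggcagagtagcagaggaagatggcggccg

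The response element core was found in the windows of Psmb5 and Psmb6 and not in those of Psmc1, Psmc4 and Psmd2, and Psmc1 held 1 CCAAT box. RefSeq promoters were at hand for 41 of the 50 members. Over the core particle, 2 of 13 promoters held the response element core (Psmb5 and Psmb6). Over the regulatory particle 3 of 16 did (Adrm1, Psmc6 and Psmd12), where 12.4% of all 32851 promoters of this length held it. The printed windows thus include both core promoters with a match and none of the 3 regulatory ones, and do not stand for the 2 particles. CCAAT was found in 7 of 13 core and 5 of 16 regulatory promoters, against 37.4% of all promoters. Neither motif contains the other, although 2 matches could share bases at an edge. A match describes these letters only and shows no binding.

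No member of the constitutive proteasome passed the threshold between old and young HSCs. In the quasi-likelihood test of edgeR with Benjamini-Hochberg adjustment over 11506 genes, 0 of 49 tested members had an adjusted p under 0.05, where 29 of all genes (0.252%) did, 27 of them higher (0.235%) and 2 lower (0.0174%) in old HSCs. At an unadjusted p under 0.05 there were 7 members, of which 6 (Psmc1, Psmc4, Psmd2, Psme3, Usp14 and Psmc3ip) were lower and 1 (Psme1) higher in old HSCs. Over all genes 9.12% had such a p, 4.49% lower and 4.62% higher in old. DESeq2 called 1 of the members, Psmd2, and 431 of the 11323 genes to which it gave an adjusted p (3.81%). limma-voom called none of the members and 50 genes (0.435%). Limited to the 4510 genes that averaged 50 CPM or more, edgeR called 0 of 45 members and 130 genes (2.88%).

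The core and the regulatory particle differed in their median fold change. The 15 tested core members had a median log2 fold change of 0.17, with 11 positive and 4 negative values from -0.21 to 0.77. The 18 regulatory members had a median of -0.24, with 3 positive and 15 negative values from -1.45 to 0.21. Over all tested genes the median was -0.03 and 51.5% of the values were negative. The base (8 of 10 negative, median -0.23) and the lid (7 of 8 negative, median -0.25) were alike in this, and so were the 6 ATPases (5 negative, median -0.35). These medians are a description of the members, since the list was chosen with results known. In bulk RNA, fewer cells with a transcript and less of it per cell cannot be told apart.

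**Figure D1:**
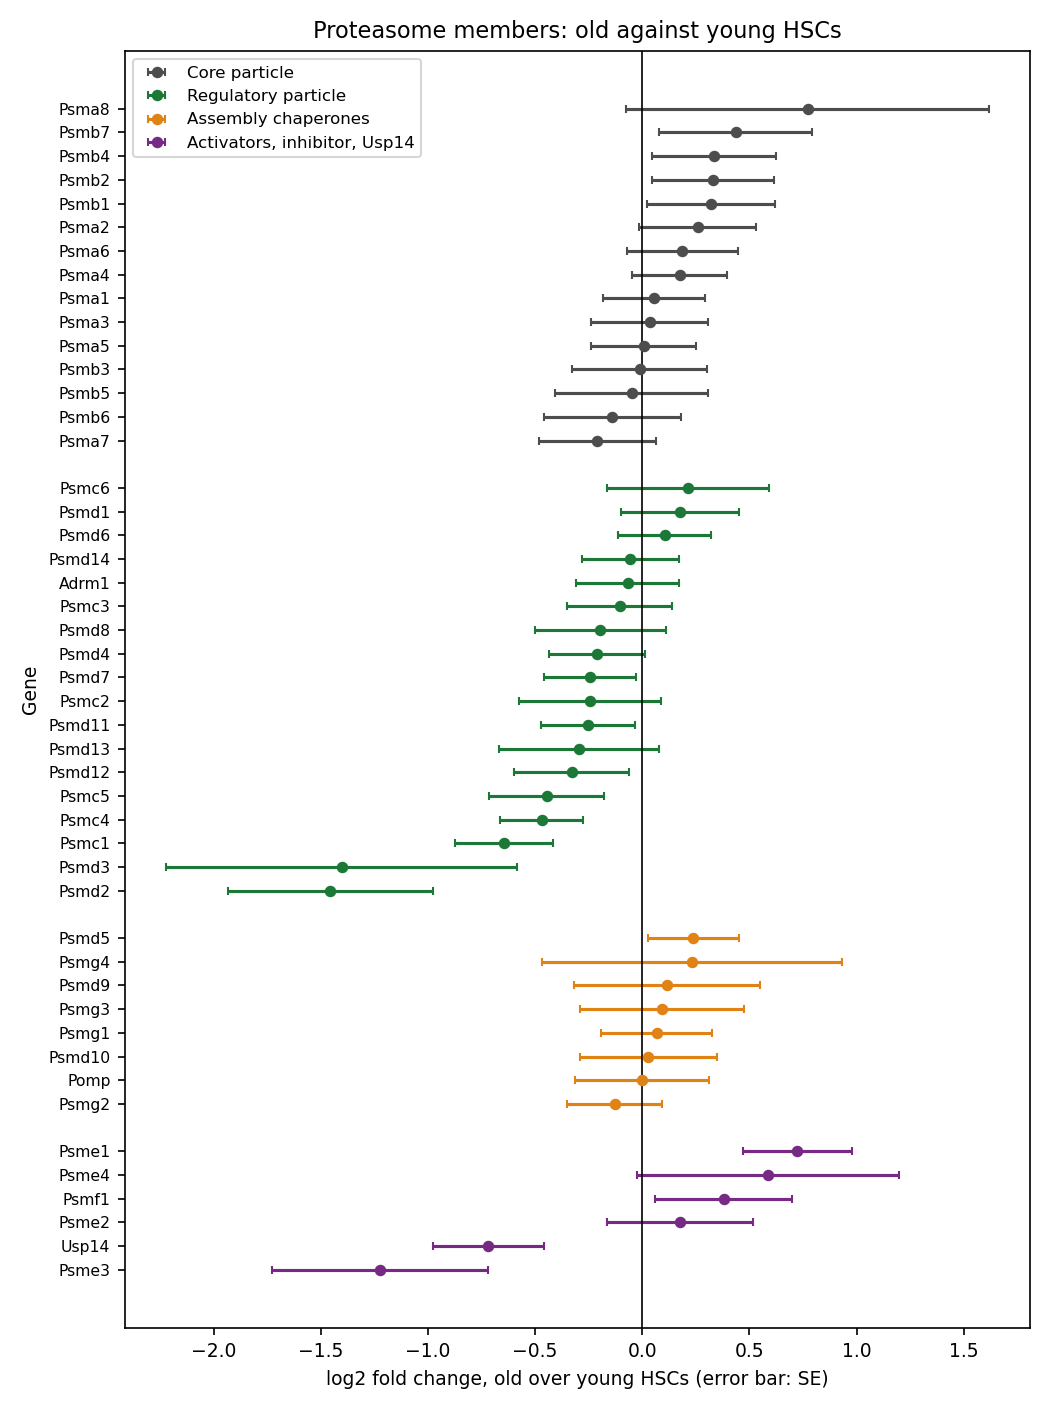
Log2 fold change of 47 tested proteasome members, old over young HSCs, by group (points, with SE as bars, 3 old and 4 young libraries). Most regulatory genes lie left of 0, with Psmd2 at -1.45 and Psmc1 at -0.64, while the core genes lie between -0.21 and 0.77.

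The summed transcripts of the regulatory particle separated the groups, and those of the core particle did not. Over its 18 genes the regulatory particle summed to 5365, 5037 and 5076 CPM in old 1, old 2 and old 3, and to 6215, 7471, 5743 and 5616 CPM in young 1 to young 4. Every old library thus lay below every young one, with a mean of 5159 ± 179 CPM (SD, n = 3) against 6261 ± 847 CPM (SD, n = 4). Of its parts, only the base separated the groups, with 2800 to 3058 CPM in old and 3419 to 4372 CPM in young libraries. Sums of the lid overlapped (2091 to 2307 against 2198 to 3099 CPM), as did those of the 6 ATPases of the base (1798 to 2151 against 2016 to 3214 CPM). The core particle summed to 8254, 6361 and 6463 CPM in the old and 6658, 9289, 4533 and 5869 CPM in the young libraries, and the groups overlapped widely, with means of 7026 ± 1065 and 6587 ± 2003 CPM. The lowest and the highest of the 7 libraries in core transcripts, young 3 and young 2, were both young.

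The ratio of regulatory to core transcripts, which the scaling of libraries does not affect, was 0.650, 0.792 and 0.785 in the old and 0.933, 0.804, 1.27 and 0.957 in the young libraries. The groups did not overlap, although old 2 and young 2 lay close together. The mean ratio was 0.743 ± 0.0802 in old libraries (SD, n = 3) against 0.990 ± 0.196 in young ones (SD, n = 4). Regulatory sums were also lower in every old than in every young library with DESeq2 size factors (4999 to 5297 against 5648 to 7499 CPM), with upper-quartile factors (4982 to 5367 against 5636 to 7436 CPM) and with library size alone (4839 to 5049 against 5955 to 7124 CPM). The difference in the mean log2 regulatory sum, old minus young, was -0.27 and became -0.14 without young 1 and young 2. That of the core went from 0.13 to 0.43, and the median log2 fold changes went to -0.07 (regulatory) and 0.45 (core). Without Psmd2 alone, regulatory sums were 4834 to 5305 CPM in the old libraries against 5094 to 7263 CPM in the young ones and overlapped. Without Psmc1, Psmc4 and Psmd2, chosen after their values were seen as the regulatory genes with the smallest p, so that a smaller difference was built in, the sums were 4074 to 4538 CPM in the old libraries against 4143 to 5962 CPM in the young ones and overlapped, as did the ratios (0.550 to 0.644 and 0.642 to 0.961).

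**Figure D2:**
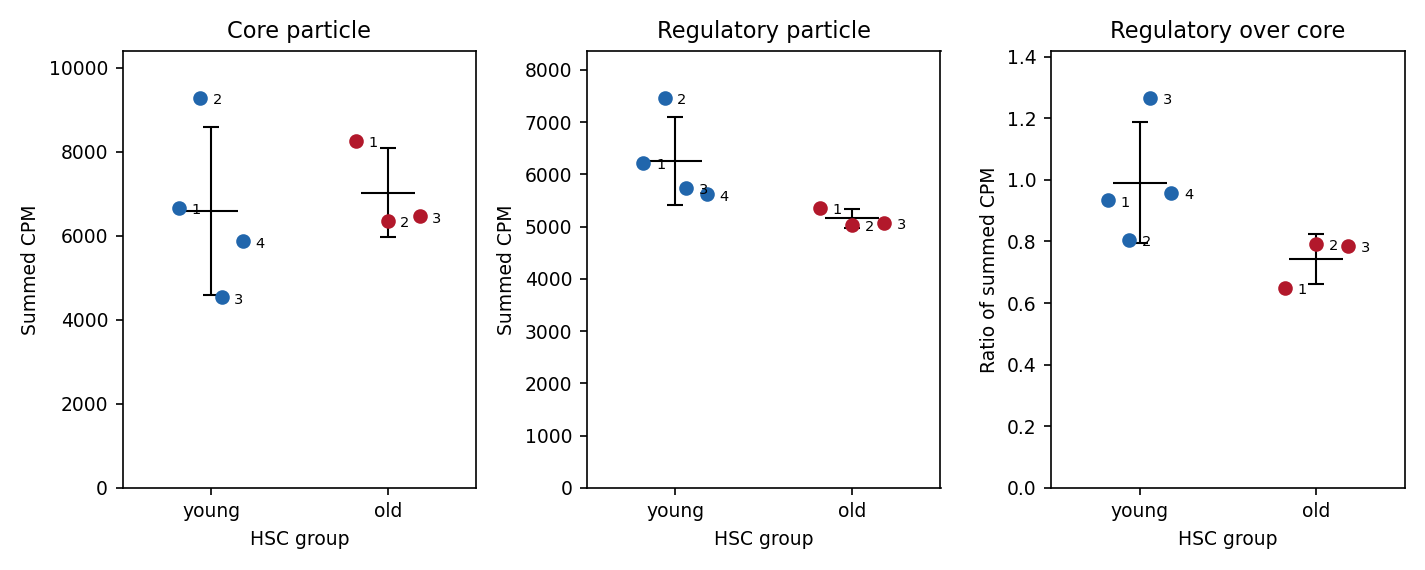
Summed CPM of core and of regulatory particle genes, and the ratio of the sums, by library (points, numbered by replicate; line and bars, mean and SD). The 3 old libraries lie at 5037 to 5365 CPM in the regulatory panel, below all 4 young libraries (5616 to 7471 CPM), and the groups overlap in the core panel.

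Libraries differed in a trend with transcript length, and the sums of core transcripts went with it. Core genes are short, with a median principal transcript of 1165 bases, and regulatory genes longer, with 1614 bases, against 2854 bases over all tested genes. Across 5247 genes of at least moderate level (mean log2 CPM over 5), which are not independent, the rank correlation of a library's deviation from the gene mean with transcript length was -0.31 in old 1, -0.06 in old 2 and -0.01 in old 3. It was 0.12, -0.30, 0.44 and 0.26 in young 1 to young 4. Old 1 and young 2, with the most core transcripts, were thus the libraries poorest in long transcripts, and young 3, with the fewest, the richest. Regulatory sums did not follow this order, with 5365 CPM in old 1, 7471 CPM in young 2 and 5743 CPM in young 3. With GC content the correlations were -0.08 to 0.08.

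When each library's trend with length was removed, a step added after the data were examined, the spread of the core narrowed, the difference in regulatory sums widened (log2 -0.27 to -0.38) and that in the ratio narrowed (log2 -0.40 to -0.31). Core sums became 6032 to 6988 CPM in the old libraries against 6325 to 7560 CPM in the young ones. Regulatory sums became 4991, 4986 and 4809 CPM in the old and 6523, 6840, 6428 and 5892 CPM in the young libraries, and the ratio 0.714, 0.827 and 0.750 against 0.954, 0.905, 1.02 and 0.902. Neither the regulatory sums nor the ratios overlapped between the groups. The medians became -0.02 for the core and -0.34 for the regulatory particle, with 16 of 18 regulatory members negative. Without Psmc1, Psmc4 and Psmd2 the length-corrected regulatory sums were 3944 to 4235 CPM in the old libraries against 4361 to 5473 CPM in the young ones and did not overlap, while the ratios did (0.6061 to 0.6684 and 0.6675 to 0.7759). In this fit 12 members had an unadjusted p under 0.05, 11 of them lower in old. Over all genes 9.91% had such a p in either direction, and the share lower in old was not counted for this fit. Negative values were held by 35 of 49 tested members, where 25 held them before, and by 6043 of 11506 genes, where 5927 did before. An adjusted p under 0.05 was reached by 0 members (0.322% of all genes).

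Other features moved with the regulatory sums. Summed transcripts of 12 cell division genes were 700.3 to 1535 CPM in the old libraries against 2522 to 4484 CPM in the young ones, and all 12 had a negative log2 fold change (median -1.88). The progenitor genes Cd48, Cd34 and Flt3 summed to 85.2 to 135 CPM in the old libraries against 261 to 407 CPM in the young ones, with Cd48 and Flt3 at 0 in all old libraries. The 8 HSC markers summed to 1469 to 1900 CPM in the old libraries against 609 to 1118 CPM in the young ones. Procr was at 290.1 to 384 against 40.2 to 66.1 CPM and Ly6a at 270.4 to 991 against 101 to 234 CPM. Kit (136 to 332 against 170.4 to 546 CPM) and Hlf (112 to 199 against 54.0 to 218 CPM) overlapped. So did Fgd5 (18.9 to 34.7 against 0 to 40.3 CPM) and Hoxb5 (22.8 to 32.4 against 8.45 to 30.3 CPM). The highest values of Kit, Hlf and Fgd5 were in young libraries. Total counts were 27369677 to 32401925 in the old libraries against 22203806 to 27146186 in the young ones. Ribosomal protein genes took 1.99% to 2.95% of counts in old and 1.28% to 1.94% in young libraries. Apart from Kit, Hlf, Fgd5 and Hoxb5, none of these ranges overlapped between the groups. Within the young group the order differed, since young 2 held the most regulatory and the fewest cell division transcripts. The part of these features in the regulatory difference was not tested.

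The groups overlapped in every alpha subunit of the core. Psma7, the most abundant of them per kilobase, had a mean of 821 ± 115 CPM in the old libraries (SD, n = 3) against 950.3 ± 310 CPM in the young ones (SD, n = 4), the lowest log2 fold change of the core (-0.21 ± 0.27 SE, edgeR adjusted p = 0.947). The other genes for constitutive alpha subunits, Psma1 to Psma6, had log2 fold changes of 0.01 to 0.26. Psma8, which replaces Psma7 in proteasomes of the male germline, was listed at 71.0, 84.4 and 27.2 CPM in the old and 5.65, 87.4, 14.3 and 35.4 CPM in the young libraries. It spread widely within both groups, and the SE of its log2 fold change exceeded the change itself (0.77 ± 0.84). Because Psma7 and Psma8 are similar in sequence, reads of one could be counted for the other.

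None of the catalytic subunits of the core separated the groups. Psmb5 carries the chymotrypsin-like site, Psmb6 the caspase-like site and Psmb7 the trypsin-like site. Psmb5 was at 134, 73.2 and 82.5 CPM in the old and 116, 133, 63.7 and 86.3 CPM in the young libraries, with a log2 fold change of -0.05 and a 95% interval of -0.85 to 0.75. Psmb6 was at 972, 889 and 752 CPM against 945, 1557, 586 and 749 CPM, with an interval of -0.86 to 0.58. Psmb7 was at 214, 101 and 109 CPM against 114, 139.9, 71.4 and 92.9 CPM, with an interval of -0.36 to 1.24. In each of them the groups overlapped, and old 1 was the highest old library. Psmb4, a non-catalytic ring subunit, had a log2 fold change of 0.33 ± 0.29 (SE). Psmb11, the catalytic subunit of the thymoproteasome, had 3 counts in young 3 and none in the other libraries, which is at the floor.

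Per kilobase of principal transcript the members spanned a wide range of levels. In young HSCs the highest were Psmb6 with 1202 ± 533 CPM per kb, Psma7 with 1040.0 ± 339 CPM per kb and Psmb2 with 753 ± 278 CPM per kb (SD, n = 4). All genes share these libraries, so an SD does not give the spread of a difference between genes, which was not tested. Below them came Psma1 with 591 ± 157 and Psma6 with 545 ± 153 CPM per kb. Of the regulatory particle Psmc4 was highest with 379 ± 52.4 CPM per kb and Psmd3, a scaffold of the lid, lowest with 30.8 ± 24.4 CPM per kb. The length of the transcript used in these cells was not measured, so levels of different genes are approximate.

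The catalytic subunits of the constitutive core were set beside their immunoproteasome counterparts, which replace them in immune cells. Per kilobase, Psmb8 exceeded Psmb5 by a ratio of 7.75, 8.60 and 7.09 in the old and 4.26, 6.34, 8.43 and 7.27 in the young libraries. Psmb10 exceeded Psmb7 by a ratio of 2.28 to 3.24 in old and 2.22 to 3.21 in young HSCs, whereas the ratio of Psmb9 to Psmb6 was 0.137 to 0.227 in old and 0.0928 to 0.169 in young HSCs. The order within each pair was thus the same in all 7 libraries, and each ratio overlapped between the groups. No immunoproteasome gene passed the threshold (log2 fold changes of 0.26 for Psmb8, 0.44 for Psmb9 and 0.48 for Psmb10, edgeR adjusted p of 0.645 to 0.921).

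**Figure D3:**
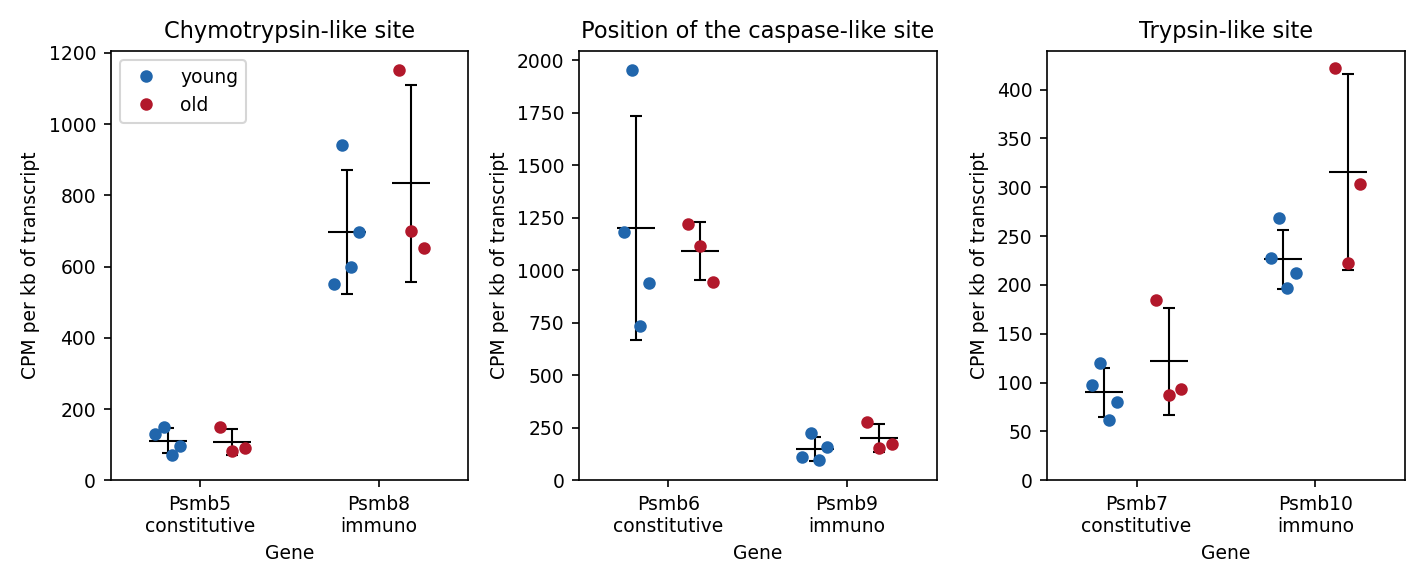
Levels of the 3 catalytic subunits of the constitutive core and of their immunoproteasome counterparts, in CPM per kb of principal transcript, by library (points; line and bars, mean and SD). Psmb8 lies above Psmb5 and Psmb10 above Psmb7, while Psmb9 lies below Psmb6, in both groups.

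Core genes went up and down together from library to library, and regulatory genes less so. Over the 7 libraries the median Pearson correlation of log2 CPM was 0.731 among the 105 pairs of core genes, 0.262 among the 153 pairs of regulatory genes and 0.261 among the 270 pairs of a core and a regulatory gene. All pairs share the libraries, their depth and their length trend, so these values are a description. Young 3 was the lowest of all libraries in 13 of 15 core genes, and the highest was young 2 in 8 and old 1 in 6. In the regulatory particle young 2 was the highest in 13 of 18 genes, and the lowest was old 3 in 5 and old 1 in 4.

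**Figure D4:**
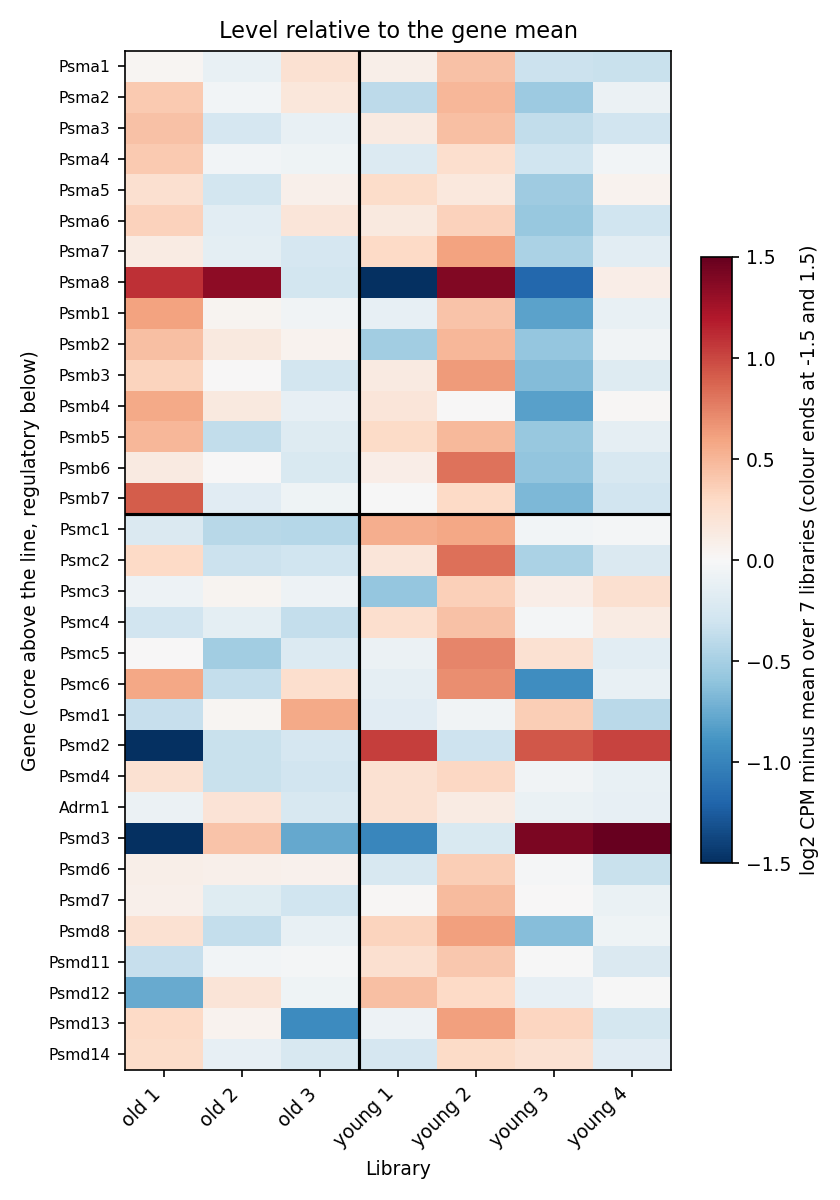
Levels of 15 core and 18 regulatory genes by library, as log2(CPM + 0.5) minus the mean of the gene over the 7 libraries (red above, blue below). The core block is blue in young 3 and red in old 1 and young 2, whereas Psmc1 and Psmc4 are blue in all 3 old libraries.

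The ATPases Psmc1 and Psmc4 separated the groups in the base of the regulatory particle. Psmc1 was at 380.0, 331 and 329 CPM in the old and 643, 659.5, 431 and 434 CPM in the young libraries. All old values lay below all young ones, and among the young, young 1 and young 2 were high. The log2 fold change was -0.64 ± 0.23 (SE), with an unadjusted p of 0.0199 and an adjusted p of 0.366 (edgeR). Psmc4 was at 387, 428 and 368 CPM in the old and 562, 642, 463 and 517 CPM in the young libraries, again without overlap (log2 fold change -0.47 ± 0.19 SE, edgeR adjusted p = 0.474). These were the only regulatory genes of 18 whose groups did not overlap, where 5.18% of all genes were lower in old without overlap and 7.55% higher. The ATPase gene Psmc6 had the only positive log2 fold change of the 6 ATPases (0.21 ± 0.38 SE), with 111 to 345 CPM in young HSCs.

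The ubiquitin receptors of the base ranged from the largest difference of all members to almost none. Psmd2, a scaffold that binds ubiquitin and shuttle proteins, was at 60.2, 204 and 216 CPM in the old and 530.5, 208, 494 and 522 CPM in the young libraries. The groups overlapped because young 2 was as low as old 2 and old 3, while the other young libraries were above all old ones. Its log2 fold change was -1.45 ± 0.48 (SE), a 2.74-fold lower level in old, with an adjusted p of 0.323 in edgeR and 0.0375 in DESeq2. In fits without 1 library it ranged from -1.73 to -1.06, with edgeR adjusted p of at least 0.163. Psmd1, its partner scaffold, had a log2 fold change of 0.17 ± 0.28 (SE). The receptors Psmd4 (371 ± 84.9 CPM in old, 429.6 ± 62.2 CPM in young) and Adrm1 (124.5 ± 19.6 and 131 ± 15.95 CPM) had log2 fold changes of -0.21 and -0.07.

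The lid held genes with lower means in old HSCs, none of which separated the groups. Psmd3 was at 9.56, 45.8 and 19.7 CPM in the old and 16.9, 28.8, 91.0 and 128 CPM in the young libraries, with high values in young 3 and young 4 only (log2 fold change -1.40 ± 0.82 SE, edgeR adjusted p = 0.718). Psmd14, the deubiquitinase that removes chains from substrates as they enter the core, had a mean of 394 ± 77.1 CPM in the old libraries against 409 ± 76.6 CPM in the young ones, with a 95% interval of the log2 fold change from -0.57 to 0.46. Psmd6, the only lid gene with a positive log2 fold change (0.10 ± 0.22 SE), was at 374, 371 and 367 CPM in the old and 279 to 454 CPM in the young libraries. The remaining lid genes Psmd7, Psmd8, Psmd11, Psmd12 and Psmd13 had log2 fold changes of -0.33 to -0.20.

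Assembly chaperones did not separate the groups. The 8 genes had log2 fold changes of -0.13 to 0.24 (median 0.08), and their sum was 1458 to 1659 CPM in the old libraries against 1104 to 1954 CPM in the young ones. Pomp, which guides the beta rings together and is then degraded, was at 396, 316 and 273 CPM in the old and 379, 466, 185 and 284 CPM in the young libraries. Its log2 fold change was -0.002 with a 95% interval of -0.71 to 0.70, so a difference of up to that size is not excluded by the spread between libraries.

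The alternative caps of the core particle went in different directions. Psme1, a subunit of the interferon-inducible activator, was at 913, 587 and 588 CPM in the old and 333, 560, 377 and 416.5 CPM in the young libraries, without overlap but with young 2 close to old 2 and old 3. Its log2 fold change was 0.72 ± 0.25 (SE), 1.65-fold, with an adjusted p of 0.356 (edgeR). Psme2, which forms the same ring with Psme1, did not follow it, with 521, 332 and 274 CPM against 303, 516, 200.3 and 310.0 CPM (log2 fold change 0.18 ± 0.34 SE). Reads of Psme2 and of Psme2b (7.76 to 18.6 CPM) could be exchanged in counting. Psme3, the subunit of the nuclear activator, was at 31.0, 155 and 108 CPM in the old and 332, 145, 222 and 218 CPM in the young libraries. Old 1 was lowest and young 1 highest, and young 2 lay within the old range (log2 fold change -1.22 ± 0.50 SE, edgeR adjusted p = 0.472). Psme4, a large single-chain activator, and Psmf1, known as a proteasome inhibitor, had positive log2 fold changes within their error (0.59 ± 0.61 and 0.38 ± 0.32 SE).

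Usp14, a deubiquitinase that binds the regulatory particle and trims ubiquitin chains, was lower in all old libraries than in any young one. It was at 121, 129.7 and 165 CPM in the old and 200.1, 289, 171 and 250.1 CPM in the young libraries, with old 3 and young 3 close together. Its log2 fold change was -0.72 ± 0.26 (SE), with an unadjusted p of 0.0206 and an adjusted p of 0.371 (edgeR). Psmc3ip, the member of the pattern that is no proteasome part, was at 25.5, 63.6 and 30.9 CPM in the old and 111, 77.0, 84.0 and 68.6 CPM in the young libraries, also without overlap (edgeR adjusted p = 0.444).

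**Figure D5:**
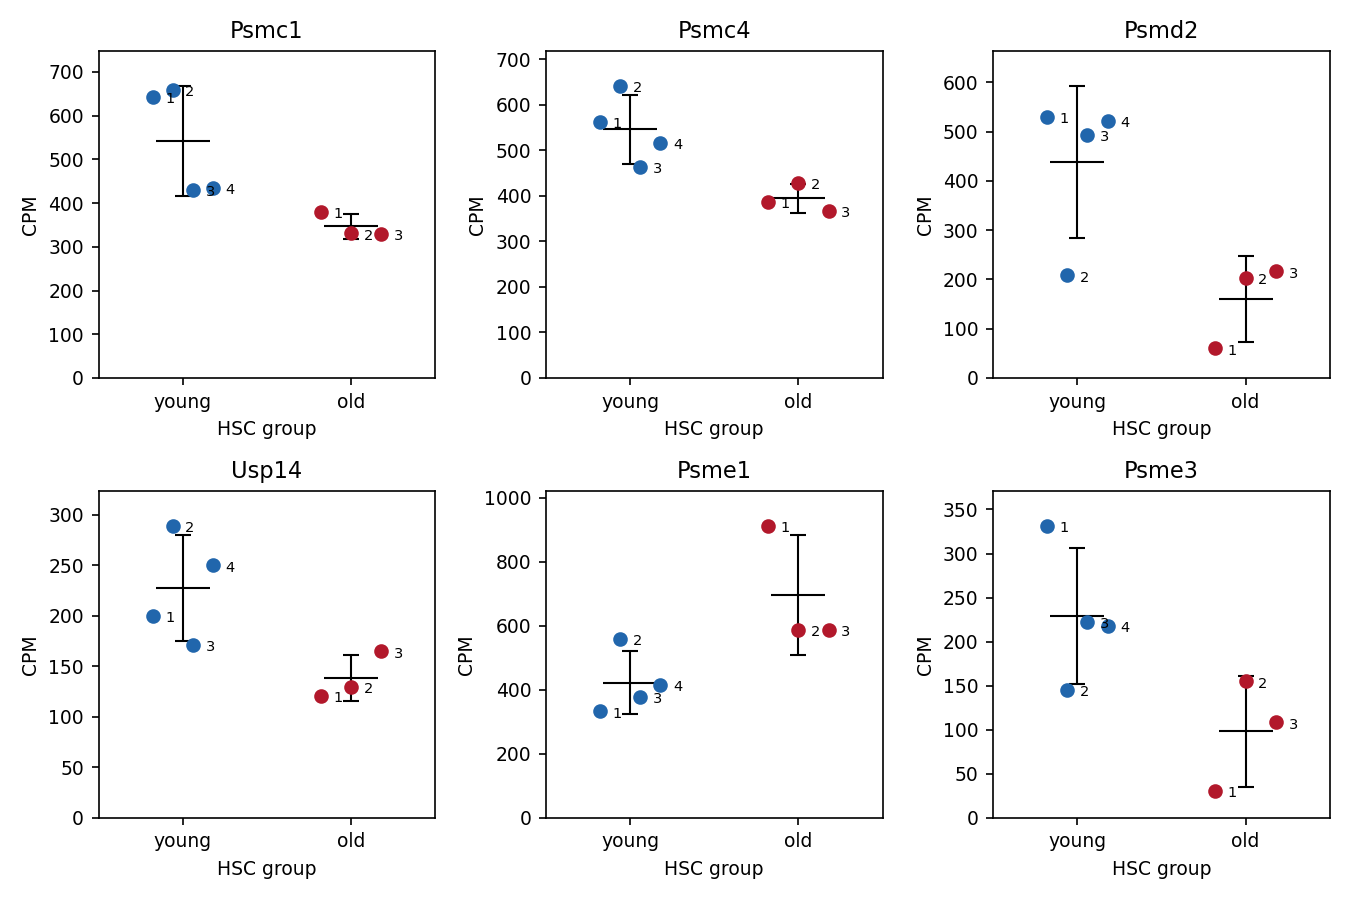
CPM of 6 members by library (points, numbered by replicate; line and bars, mean and SD). Old libraries lie below all young ones for Psmc1, Psmc4 and Usp14 and above them for Psme1, while young 2 overlaps the old libraries for Psmd2 and Psme3.

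Other genes that feed or control the proteasome had fold changes in both directions. The list held 28 genes of the table for further particle parts, shuttles, the segregase Vcp and its cofactors, ubiquitin itself, its activating enzymes and transcriptional control. None passed the threshold in edgeR. Their median log2 fold change was 0.07, with 16 positive and 12 negative values, and at an unadjusted p under 0.05 there were 3 higher (Zfand5, Txnl1 and Nfe2l2, where 4.62% of all genes were) and 2 lower (Uchl5 and Nploc4, where 4.49% were). Without overlap between the groups, 5 were higher in old (Zfand5, Txnl1 and Nfe2l2 among them, against 7.55% of all genes) and 1 lower (Uchl5, against 5.18%). DESeq2 called 1 of the 28, Zfand5, and 3.81% of all genes.

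Zfand5, which activates the proteasome and is induced in wasting muscle, had the smallest p of this list. It was at 389.6, 402 and 421 CPM in the old and 231.5, 225, 195 and 226 CPM in the young libraries. The groups lay far apart with little spread (log2 fold change 0.88 ± 0.18 SE, edgeR adjusted p = 0.124, DESeq2 adjusted p = 1.51e-04, and edgeR adjusted p = 0.0454 after removal of the length trend). Txnl1, a thioredoxin-like protein that binds the regulatory particle, was at 372 to 429 CPM in the old libraries against 207 to 305 CPM in the young ones (log2 fold change 0.62 ± 0.21 SE). Uchl5, a deubiquitinase that Adrm1 recruits, was at 319, 282 and 236 CPM in the old and 500.2, 479.7, 380.4 and 334 CPM in the young libraries (log2 fold change -0.60 ± 0.22 SE, edgeR adjusted p = 0.396). All old values of Uchl5 lay below all young ones.

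Nfe2l1, the transcription factor known to drive proteasome genes when proteasome activity falls short, was at 8.23 to 15.8 CPM in the old libraries against 5.39 to 17.3 CPM in the young ones (log2 fold change -0.06 ± 0.99 SE). Nfe2l2, its relative in the oxidative stress response, was at 318, 288 and 313 CPM in the old and 222, 259, 151 and 205 CPM in the young libraries, without overlap (log2 fold change 0.55 ± 0.23 SE, edgeR adjusted p = 0.474). Nploc4, a cofactor of Vcp, was at 1.51, 20.9 and 16.8 CPM in the old and 83.2, 47.1, 118 and 16.0 CPM in the young libraries, and young 4 lay within the old range (edgeR adjusted p = 0.472).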

How the data were processed

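Per the submitters' processing notes, Trimmomatic, FastQC, STAR and featureCounts were used with the build mm9. Which versions, settings, strand handling and gene annotation were chosen is not given in the sources used here. Per the labels' protocols, cDNA was made by Smart-seq+ and libraries with the Nextera XT kit, which does not mark strand, so counts may include amplification copies and reads of overlapping genes. The authors deposited raw counts of reads, with gene symbols in rows and the 7 libraries in columns, and every row names a gene.

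Counts were analysed in R 4.3.3. Genes were kept by filterByExpr of edgeR 4.0.16 (minimum count 10, minimum total 15), scaled by TMM and tested by the quasi-likelihood F test (2-sided) in a model of group alone, fitted to all 7 libraries, with p-values adjusted over 11506 genes by the Benjamini-Hochberg method. An adjusted p under 0.05 passed. Each SE was derived from the log2 fold change and its F. Alternatives were DESeq2 1.42.0, limma-voom (limma 3.58.1), 3 scalings, 2 filters, the replicate number as a block and each library left out; leaving out young 1 with young 2 and removing the length trend were added after the data were examined. For the latter, a lowess curve of each library's deviation from the gene mean in log2 CPM, against log2 transcript length, entered as an offset. Lengths are those of the principal transcript of GENCODE M21 (GRCm38), matched by symbol for 99.4% of tested genes. Since that build is not mm9, no positions were joined to the counts, and the RefSeq promoter windows (GRCm38.p6) were matched to members by symbol only. The edgeR procedure was run on simulated counts, at the dispersions of these data and at a lower one, to check the code. That outcome is not used for any statement here. In these data the common biological coefficient of variation, the spread between libraries of a group, was 106%.

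The members and lists were chosen with earlier results of these data known. Genes named are members with an unadjusted p under 0.05, the 3 highest and 3 lowest log2 fold changes of each particle, the catalytic subunits, ubiquitin receptors, deubiquitinases, caps, Pomp, the 3 immunoproteasome subunits, Nfe2l1, Nfe2l2 and other pathway genes with an unadjusted p under 0.05. Others were named after their values were seen. One further gene of the HSC list and one of the pathway list are not reported here by name.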

Additional observations from a re-analysis of the deposited data

Results flagged for a closer look

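In 36 sets of 4 young libraries, those of the named genes and of the sums, the outermost library was compared with the others by Dixon's test at its 95% critical value, which chance passes in about 1 of 20 sets. It was passed in 2. For Psmd2, young 2 had 208 CPM where the remaining young libraries had 494 to 530.5 CPM. For Zfand5, young 3 had 195 CPM where the remaining young libraries had 225 to 231.5 CPM.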

How the results depend on the processing

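Of 29 genes past the edgeR threshold, the count became 16 with library size alone as scaling, 130 among genes averaging 50 CPM or more, 50 in limma-voom, 431 in DESeq2, 7 without young 1 and young 2, and 2 to 18 with 1 library left out (2 without old 1 and 2 without old 3). Members past it numbered 0 in each of these edgeR and limma fits, and 1 in DESeq2. Members at an unadjusted p under 0.05, 7 in all libraries, became 12 after removal of the length trend, 4 without young 1 and young 2, and 2 to 8 with 1 library left out (2 without old 1, 3 without old 3, 4 without young 4). The labels state no pairing by replicate number. Deviations of old and young libraries of the same number correlated at -0.0255, -0.163 and 0.178 for numbers 1 to 3. These values cannot decide on a pairing, since libraries of unlike number reached 0.287 (old 1 with young 2). With the replicate block 0 genes passed and 1 member had an unadjusted p under 0.05.

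With 1 library left out the median log2 fold change was 0.01 to 0.29 for the core and -0.36 to -0.11 for the regulatory particle. The difference in mean log2 sums, old minus young, was then -0.03 to 0.31 for the core and -0.32 to -0.18 for the regulatory particle. The median over all genes, -0.03, became -0.05 with DESeq2 size factors, -0.05 with upper-quartile factors and -0.12 with library size alone.

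Of the values of single named genes under alternatives, 521 kept direction and side of the threshold, 33 reversed and 3 passed it. The log2 fold changes that reversed were small. Without young 1 and young 2 they became 0.0835 for Adrm1, 0.48 for Pomp, 0.22 for Psma7, 0.36 for Psmb5 and 0.38 for Psmb6. Without the length trend they became 0.13 for Nfe2l1, -0.0520 for Psmd6 and -0.0381 for Psme2. For Pomp the value was 0.0900 in limma-voom and 0.0200 with the replicate block. With 1 library left out the ranges were -0.214 to 0.0247 for Adrm1, -0.39 to 0.19 for Nfe2l1, -0.20 to 0.22 for Pomp, -0.36 to 0.12 for Psmb5, -0.31 to 0.20 for Psmb6, -0.0451 to 0.439 for Psmb8, -0.0188 to 0.553 for Psmc6, -0.10 to 0.36 for Psmd1, -0.227 to 0.0465 for Psmd14 and -0.14 to 0.47 for Psme2. The cause of these shifts was not tested. Precision at this depth is lowest for the scarcest tested member, Psme2b, with means of 12.25 CPM in old and 12.36 CPM in young libraries.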
